A study of Mus musculus with 28 samples.

Results

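Single cells were picked from the wall of the lateral ventricle of 24-month-old mice. Myelin genes led those that set 5 *Gfap*+ cells apart, and 4 *Dlx2*+/*Dcx*+ cells carried forebrain homeodomain factors together with DNA replication genes. The *Dlx2*+/*Dcx*+ cells are called neuroblasts here, as the study names them. The study found a co-expressed gene set of these cells enriched in published neuroblasts and also in transit amplifying progenitors, the dividing cells that precede neuroblasts. The contrast was described over all genes whose expression value was above 1 in at least 3 of these 9 cells. This rule kept 7530 of the 37974 genes listed, and the 9 cells are part of 22 sequenced. Expression values were FPKM, the fragments of a gene divided by its length and by the fragments mapped in that cell, so levels can be set side by side between genes of different length.

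All cells came from mice of the C57BL/6 genetic background, and the labels name no transgene, deletion or treatment in any group. Mice were 24 months old in both groups compared. The wall next to the striatum was digested with papain, cells were sorted in the flow cytometry gate P1 and picked by hand, and each cell's cDNA was made by Smart-seq2, which copies whole transcripts and adds no molecular identifiers. Quantitative PCR on the cDNA of each cell for *Prom1*, *Gfap*, *Dlx2* and *Dcx* chose which cells were sequenced. Per the study's methods, all sequenced cells of both ages were then clustered on these same expression values and the clusters were named by known marker genes. Differences between the groups were thus partly fixed by how the groups were made, and every value of the cells is a description. Neither the number of mice behind the 9 cells nor the mouse of any cell was given, and all cells of a group may have come from 1 mouse. Each group therefore counts as 1 sample and no test between the cells is given. The value of every cell is printed for many genes, and ranges, differences or only the call for others. Used beside them were 2 *Gfap*+ and 5 *Dlx2*+/*Dcx*+ cells of 1 month, 3 *Prom1*+ cells of 24 months, and bulk RNA-seq of the ventricular wall of 18-month-old and 3-week-old mice with 3 samples each.

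The ventricular-subventricular zone keeps making neurons in adult rodents. Stem cells pass through dividing transit amplifying cells to neuroblasts, which still divide while they migrate to the olfactory bulb and become mostly GABAergic interneurons. The same wall yields oligodendrocytes, the cells that wrap axons in myelin and lie densely in the white matter next to it. *Gfap*, an intermediate filament gene, is used as a marker of astrocytes and of astrocyte-like stem cells. *Dlx2*, a homeodomain factor of the GABAergic lineage, and *Dcx*, a microtubule-associated protein of migrating young neurons, mark neuroblasts.

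The *Dlx2* and *Dcx* PCR products of the study's primer list are shown because these genes give the neuroblasts their name. Whether these assays chose the cells is not stated. The products were read from the GENCODE M21 transcripts of GRCm38 between the primer sites, in the direction of the gene's own transcript, with the hydrolysis probe in capitals. The *Dlx2* product joins exons 2 and 3 on chr2:71544868-71545400 (minus strand) and was found in both of 2 transcripts, and the *Dcx* product joins exons 6 and 7 on chrX:143863545-143870688 (minus strand) and was found in 4 of 6.
Dlx2: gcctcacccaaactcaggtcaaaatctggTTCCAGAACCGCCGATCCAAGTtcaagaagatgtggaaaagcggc
Dcx: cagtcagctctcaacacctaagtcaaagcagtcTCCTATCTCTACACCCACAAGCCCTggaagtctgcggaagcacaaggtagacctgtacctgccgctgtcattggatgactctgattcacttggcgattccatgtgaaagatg

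The marker genes in the group names had these levels, which the naming of the clusters had used. *Gfap* (chr11:102887336-102900912 in GENCODE M21) was at 96.1, 48.7, 75.3, 194 and 160.1 FPKM in *Gfap*+ cells 1 to 5 and was listed at 0 in all 4 neuroblasts. *Dlx2* (chr2:71543408-71546754) was at 649, 315, 1245 and 524 FPKM in neuroblasts 1 to 4, against 1.17 to 2.68 FPKM in the *Gfap*+ cells. *Dcx* (chrX:143855842-143933311) was at 153, 15.8, 267 and 152 FPKM in neuroblasts 1 to 4 and at 0 to 0.516 FPKM in the *Gfap*+ cells. *Prom1*, the gene of the stem cell surface protein CD133, stayed at or below 0.452 FPKM in all 9 cells, so the cells of the groups did not overlap for *Gfap*, *Dlx2* or *Dcx* and *Prom1* was near 0 in both groups.

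Astrocyte genes were partly present in the *Gfap*+ cells. Of 11 tested, 8 had positive differences, the median was 3.47, and all 24 listed summed to 2318 to 5979 FPKM in *Gfap*+ cells and 427 to 634 FPKM in neuroblasts. *Aldoc*, an aldolase abundant in astrocytes, was at 387, 479.8, 385, 0 and 373 FPKM in *Gfap*+ cells and 0, 0, 0.821 and 0 FPKM in neuroblasts and was not called because of the zero in *Gfap*+ cell 4. The astrocyte water channel gene *Aqp4*, the folate enzyme gene *Aldh1l1*, *Gjb6*, *Agt* and *Slc6a11* were listed at 0 in all 9 cells, and 9 of 24 astrocyte genes did not exceed 1 FPKM in any of them. *Mag*, which encodes a myelin adhesion protein facing the axon (chr7:30899176-30914873), was at 2099.8, 2573, 1949.7, 2102 and 924 FPKM in *Gfap*+ cells 1 to 5 and at 0.481, 0.182, 0.803 and 0.196 FPKM in neuroblasts 1 to 4. A *Gfap* level of 48.7 to 194 FPKM thus stood beside a *Mag* level of 924 to 2573 FPKM in the same cells. The cells are called *Gfap*+ here as the labels name them, with myelin genes as their leading genes.

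Depth and quality of the cells were as follows. Genes above 1 FPKM numbered 5069 to 6061 per *Gfap*+ cell and 5081 to 5304 per neuroblast, and mitochondrial genes took 15.4 to 22.3% and 18.1 to 19.1% of the summed FPKM. Ribosomal protein genes took 0.842 to 1.28% in *Gfap*+ cells and 2.24 to 3.46% in neuroblasts. The FPKM sum ran from 1013522 to 1712472 in *Gfap*+ cells and from 868792 to 1177486 in neuroblasts, and the values were compared as deposited. The read totals are not in the table, but the smallest steps between values put 1 fragment per kilobase at 0.433 to 0.833 FPKM in *Gfap*+ cells and 0.404 to 0.533 FPKM in neuroblasts, so values under 1 FPKM stand for at most a few fragments per kilobase. A value of 0 can be a missed transcript, since 2 to 5 of 76 ribosomal protein genes were listed at 0 in each *Gfap*+ cell and 0 to 2 in each neuroblast.

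A gene was called higher in a group when the means of log2(FPKM + 1) differed by at least 2 and no cell of the other group reached its cells. Of the 7530 genes, 512 (6.80%) were higher in *Gfap*+ cells and 281 (3.73%) were higher in neuroblasts. Protein-coding genes made up 494 and 253 of these, and every cell of the other group was at or below 1 FPKM for 262 and 117 of them. Because the expression rule can be met by the cells of 1 group alone, these counts describe the cells and are not a measure of how far 2 populations differ. Differences below are *Gfap*+ minus neuroblast on this log2 scale, which understates the contrast of genes near 0, and their median over the 7530 genes was 0.28. That median was -0.03 when FPKM were rescaled to a common sum in each cell or to the sum without mitochondrial genes, and -0.06 after quantile scaling. With medians over cells in place of means and no rescaling it was 0.096. The source of the shift was not tested. Across the tested genes, Pearson's r of log2 values was 0.426 to 0.466 among *Gfap*+ cells, 0.408 to 0.452 among neuroblasts and 0.162 to 0.202 between the groups, as a description over genes that share library and depth. The rule of 3 cells kept *Tfrc*, the transferrin receptor, with 103, 0, 0, 0 and 76.6 FPKM in *Gfap*+ cells and 0, 63.6, 0 and 0 FPKM in neuroblasts, and left out *Vim*, with 206 and 323 FPKM in 2 neuroblasts and at most 0.684 FPKM in the other cells.

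The 15 protein-coding genes with the largest differences toward *Gfap*+ cells included *Dbndd2*, *Mbp*, *Apod*, *Mal*, *Enpp2*, *Mag*, *Aspa*, *Car2*, *Hapln2*, *Trf*, *Ttyh2*, *Itgav*, *Gatm* and *Selenop*, with differences from 11.68 down to 9.99. *Dbndd2* (chr2:164486106-164493319) was at 8275, 6418, 4499, 7045 and 4394 FPKM in *Gfap*+ cells 1 to 5 and at 0.581, 0.440, 0.969 and 1.43 FPKM in neuroblasts 1 to 4. *Mbp* (chr18:82475146-82585637), whose product packs the inner faces of the myelin membrane, was at 13658, 9562, 8119, 19572 and 6464 FPKM in *Gfap*+ cells and 2.22, 3.48, 4.13 and 2.19 FPKM in neuroblasts. The lowest *Gfap*+ cell of either gene held 4394 FPKM and the highest neuroblast 4.13 FPKM.

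*Trf*, which encodes the iron carrier transferrin and is made by oligodendrocytes, reached 30520.3, 25917, 19897, 45957 and 19487 FPKM in *Gfap*+ cells and 226, 14.1, 11 and 4.81 FPKM in neuroblasts. *Car2*, a carbonic anhydrase, was at 16745, 7471, 3977, 16599 and 11397 FPKM against 126, 0.944, 4.94 and 1.27 FPKM. For both genes the first neuroblast stood above the other 3 and was still far below the lowest *Gfap*+ cell.

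The 15 genes at the other end were *Nrep*, *Ccnd2*, *Dlx1*, *Tiam2*, *Gng2*, *Dlx2*, *Cdca7*, *Sox4*, *Marcks*, *Zfp948*, *Cd24a*, *Hist1h1b*, *Ets1*, *Tagln3* and *Fxyd6*, with differences from -8.84 to -7.32. *Nrep*, a gene of regenerating and young neurons, was at 1297, 529, 1672 and 1839.8 FPKM in neuroblasts 1 to 4 and 2.39, 0.958, 0.416, 2.02 and 3.40 FPKM in *Gfap*+ cells 1 to 5. *Ccnd2* (chr6:127125162-127152193), the D-type cyclin used by neural progenitors to enter the cycle, was at 1276, 1374, 1128 and 2812 FPKM in neuroblasts and 2.90, 1.59, 1.25, 3.86 and 3.62 FPKM in *Gfap*+ cells. The lowest neuroblast of either gene held 529 FPKM and the highest *Gfap*+ cell 3.86 FPKM.

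A further 3 genes of this end are given by cell. *Dlx1* (chr2:71528113-71533981), the neighbour and partner of *Dlx2*, was at 1017, 663, 539.8 and 983 FPKM in neuroblasts and 1.56, 0.196, 0.942, 3.28 and 1.22 FPKM in *Gfap*+ cells. *Cd24a*, a surface glycoprotein by which neuroblasts are sorted, was at 59.5, 548, 528 and 1212 FPKM in neuroblasts and 1.24, 1.16, 0.756, 1.47 and 1.03 FPKM in *Gfap*+ cells. *Cdca7*, which acts with a chromatin remodeller in dividing cells, was at 269, 316, 253 and 453 FPKM and 0.300, 0.281, 0, 1.62 and 1.35 FPKM in the same order. Of these 3 genes *Cd24a* varied the most among neuroblasts, with neuroblast 1 at 59.5 FPKM.

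**Figure D1:**
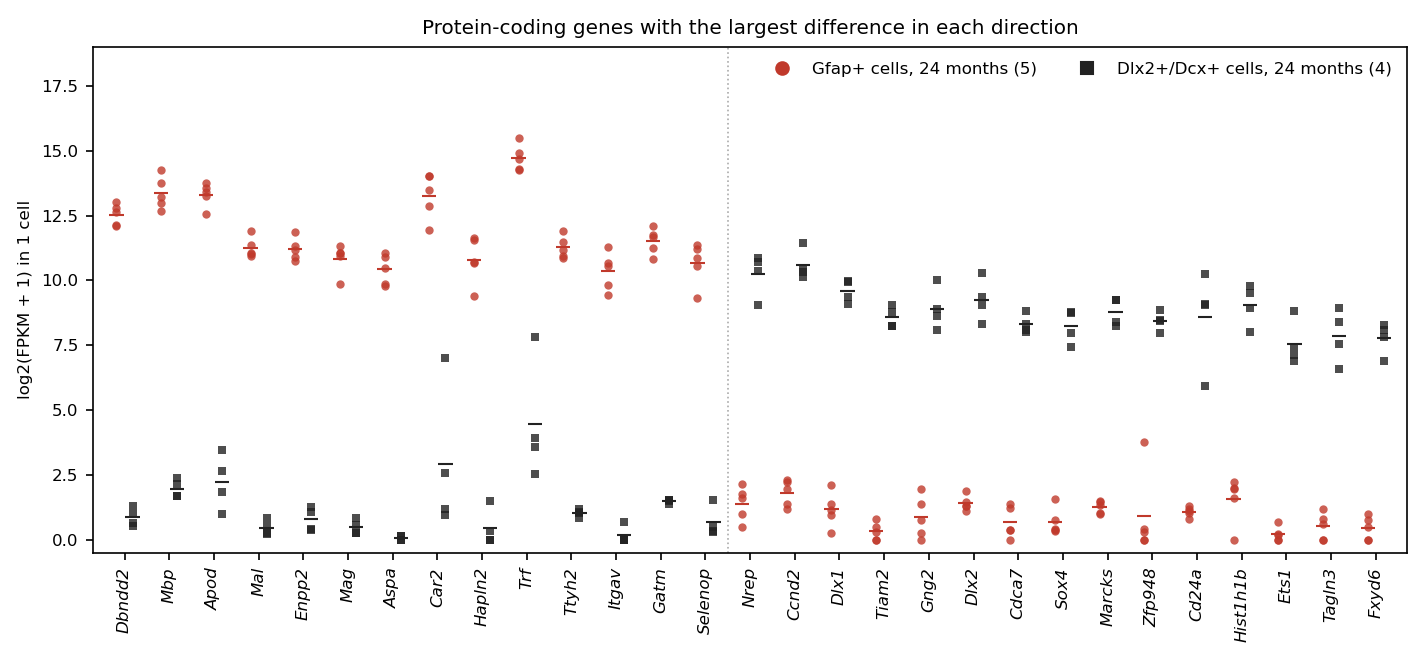
FPKM of the protein-coding genes named above for the largest difference in each direction (y axis, log2(FPKM + 1), 1 point per cell, genes on the x axis, circles for 5 *Gfap*+ cells and squares for 4 *Dlx2*+/*Dcx*+ cells of 24 months, short lines for group means). For each gene shown the points of the 2 groups do not meet, and the gap is widest for *Dbndd2*, with 4394 to 8275 FPKM against 0.440 to 1.43 FPKM.

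Myelin structure genes were higher in *Gfap*+ cells for 19 of the 20 tested, with a median difference of 8.55. Besides *Mbp* and *Mag* they took in *Mal*, a proteolipid of myelin membranes, at 1947 to 3871 FPKM against 0.156 to 0.801 FPKM, and *Mog*, the glycoprotein of the outermost myelin layer, at 2144, 792, 1312, 2159 and 1103 FPKM against 0, 0.883, 0.973 and 0.269 FPKM. *Cldn11*, the tight junction protein between myelin wraps, was at 8689, 9545, 5011, 24431 and 9720.5 FPKM in *Gfap*+ cells and 114, 2.51, 6.03 and 12.7 FPKM in neuroblasts. The gap junction genes *Gjb1* and *Gjc3*, through which myelin layers and glia are coupled, were at 58.7 to 719 and 7.96 to 228 FPKM in *Gfap*+ cells and at or below 1.37 FPKM in neuroblasts. *Opalin*, a listed myelin glycoprotein gene that missed the expression rule, was at 0, 0, 0, 1120.5 and 0 FPKM in *Gfap*+ cells. *Tppp*, a tubulin-binding protein, was the 1 tested gene not called, because the 12.1 FPKM of the third neuroblast passed the 10.6 FPKM of the third *Gfap*+ cell.

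Genes that make the lipids of myelin went less uniformly. Of 16 tested, 7 were higher in *Gfap*+ cells and none in neuroblasts, with a median difference of 5.0. *Aspa*, which frees acetate for lipid synthesis from N-acetylaspartate, was at 1420.3, 2119, 889, 1934 and 925 FPKM in *Gfap*+ cells and 0, 0, 0.104 and 0.101 FPKM in neuroblasts. *Fa2h* and *Ugt8a*, which hydroxylate the fatty acids of galactolipids and add their galactose, were at 155 to 932 and 117 to 679 FPKM in *Gfap*+ cells and at or below 0.227 FPKM in neuroblasts. *Sqle* and *Fdft1*, which act on squalene in sterol synthesis, overlapped between the groups, *Fdft1* at 1.75, 12.7, 2.29, 0.296 and 106 FPKM in *Gfap*+ cells and 37, 0, 0.466 and 0 FPKM in neuroblasts.

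Of 12 tested transcription factors of the oligodendrocyte lineage, *Nkx6-2*, *Sox8*, *Sox10* and *Myrf* were higher in *Gfap*+ cells. *Sox10*, which defines the oligodendrocyte lineage, was at 9.68, 3.73, 7.92, 113 and 178 FPKM in *Gfap*+ cells and 0, 0.160, 0.177 and 0 FPKM in neuroblasts. *Olig1*, a basic helix-loop-helix factor of the lineage, was at 234, 179, 72.8, 1100.4 and 471 FPKM in *Gfap*+ cells but at 0.251, 0, 119.9 and 0 FPKM in neuroblasts, so its difference of 6.30 was the largest of the list and the third neuroblast still lay inside the *Gfap*+ range. *Zeb2* and *St18*, expressed in both lineages, overlapped, with 142 to 1538 against 124 to 241 FPKM for *Zeb2* and 0.987 to 921 against 42.5 to 1469.8 FPKM for *St18*.

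Genes of mature oligodendrocytes other than myelin structure were higher in *Gfap*+ cells for 26 of 32 tested, with a median difference of 8.08. *Apod*, a lipid-binding apolipoprotein, led them with 10838, 13874, 12016, 9724 and 6032 FPKM in *Gfap*+ cells and 5.22, 0.963, 2.56 and 9.99 FPKM in neuroblasts. *Klk6*, a secreted serine protease, was at 3999.9, 398, 205, 1503 and 3599 FPKM in *Gfap*+ cells, so it varied widely among them, and was at or below 0.462 FPKM in neuroblasts. *Il33*, an alarmin cytokine gene, was at 0.285, 315, 0, 1186 and 895 FPKM in *Gfap*+ cells, which makes 3 cells above 300 FPKM and 2 below 1.

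Of 20 genes listed for oligodendrocyte progenitors and newly forming oligodendrocytes, 5 were tested and 3 were higher in *Gfap*+ cells, with a median difference of 3.83 and summed levels of 277 to 895 FPKM in *Gfap*+ cells and 57.7 to 253 FPKM in neuroblasts. The 3 were *Bcas1*, *Enpp6* and *Sulf2*, a sulfatase of the matrix at 34.5, 38.5, 23, 43.9 and 318 FPKM against 3.05, 4.45, 8.85 and 0 FPKM. *Pdgfra*, *Cspg4* and *Neu4*, also listed, did not exceed 0.0848 FPKM in any of the 9 cells, and 11 of the 20 genes did not exceed 1 FPKM in any. *Bcas1* and *Enpp6*, which are switched on in newly forming oligodendrocytes, were at 251, 216, 207, 566 and 172 and 254, 443, 44, 65.2 and 361 FPKM in *Gfap*+ cells and listed at 0 in all neuroblasts. *Vcan*, a proteoglycan of progenitors, went the other way, at 0 to 0.986 FPKM in *Gfap*+ cells and 53, 41.1, 0.708 and 82.5 FPKM in neuroblasts, with the third neuroblast inside the *Gfap*+ range.

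Among astrocyte genes, 11 were tested, 3 were higher in *Gfap*+ cells and 1 was higher in neuroblasts. Apart from *Gfap*, the 3 were *S100b*, a calcium-binding protein also made by oligodendrocytes, at 864, 1050.4, 494, 100.2 and 2181 FPKM against 0 to 0.966 FPKM, and *Glul*, glutamine synthetase, at 1069 to 2091 FPKM against 7.32 to 319 FPKM. *Sox9*, a glial factor also used by neural progenitors, was the 1 higher in neuroblasts, at 122, 35, 7.24 and 292 FPKM against 0.169 to 0.317 FPKM. *Slc1a3*, the glutamate transporter of radial glia and astrocytes, was at 375, 279, 7.81, 1.23 and 1.13 FPKM in *Gfap*+ cells and 0, 1.69, 0.104 and 3.56 FPKM in neuroblasts, so only the first 2 *Gfap*+ cells held a high level.

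**Figure D2:**
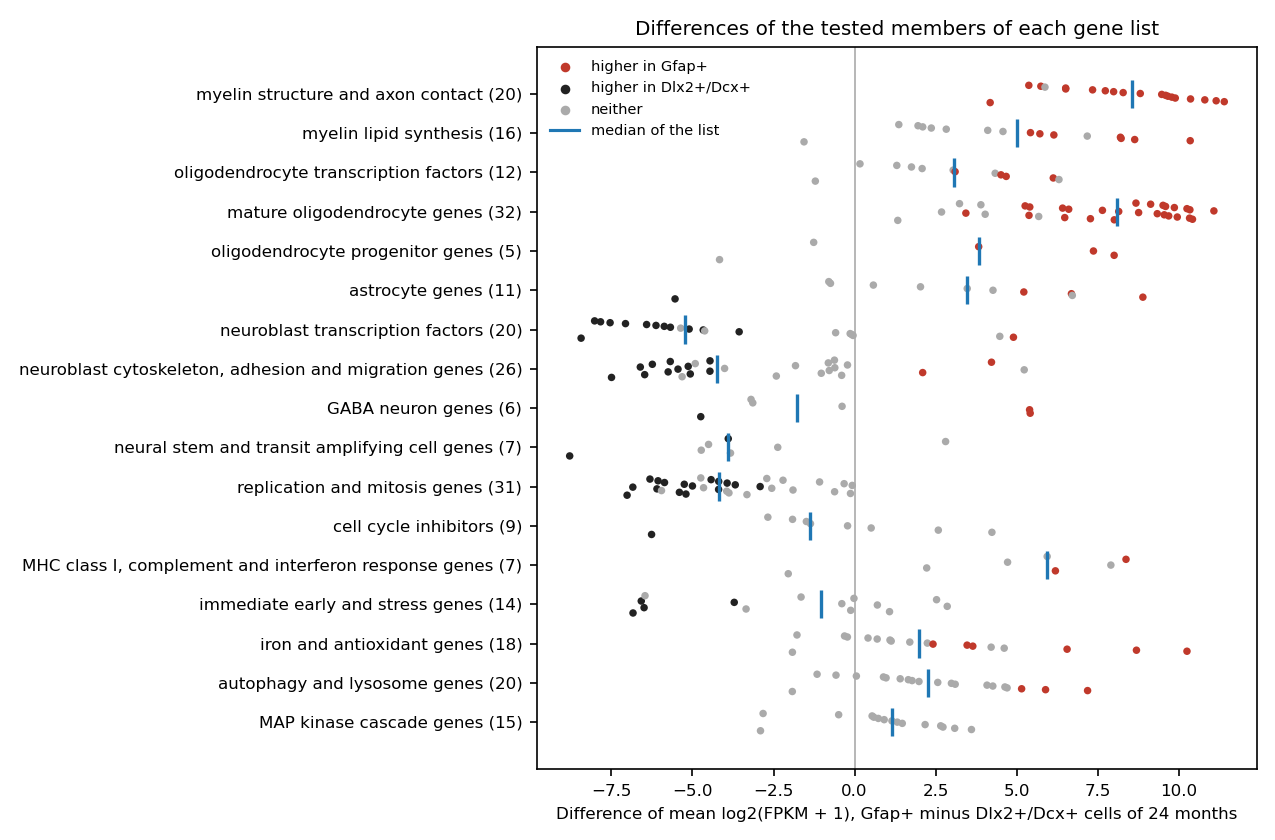
Difference of mean log2(FPKM + 1) between *Gfap*+ cells and neuroblasts of 24 months for every tested gene of each gene list (x axis, 1 point per gene with vertical offsets for visibility only, lists with 5 or more tested genes in rows, red where called higher in *Gfap*+ cells, black where called higher in neuroblasts, grey for neither, a blue line at the list median). Myelin structure genes lie between 4.18 and 11.40, and replication genes lie on the negative side for all 31 tested.

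Neuroblast transcription factors were higher in neuroblasts for 12 of 20 tested, with a median difference of -5.23. Among those called beside *Dlx1* and *Dlx2* were *Dlx6*, *Dlx6os1*, *Sox4*, *Sp9*, *Meis2*, *Tshz1* and *Tox3*. *Sp9*, a zinc finger factor needed for olfactory bulb interneurons, was at 417, 99.2, 229 and 103 FPKM in neuroblasts 1 to 4 and 0.309, 0, 0, 1.10 and 0.514 FPKM in *Gfap*+ cells. *Sp8*, its relative, was at 139, 22.5, 379 and 0.564 FPKM in neuroblasts and 0.156, 0.438, 0.379, 0.736 and 1.04 FPKM in *Gfap*+ cells, so neuroblast 4 fell among the *Gfap*+ cells.

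Neuroblast 4 was also low in *Dlx5*, a homeodomain factor of the same lineage. *Dlx5* was at 139.9, 166, 231 and 1.08 FPKM in neuroblasts 1 to 4, whereas *Dlx1* in neuroblast 4 was at 983 FPKM. *Pax6*, a factor of dopaminergic neuroblasts, was at 2.77, 1.68, 2.24 and 1.13 FPKM in the neuroblasts and 2.68, 3.67, 1.53, 2.43 and 0 FPKM in *Gfap*+ cells, which overlap near 0. *Dlx6os1* lies antisense to *Dlx6*, and reads of the pair cannot be told apart without strand. *Etv1*, an ETS factor listed for neuroblasts, was higher in *Gfap*+ cells, at 705, 758, 476, 147 and 607 FPKM against 35.6, 51.9, 27.6 and 0.118 FPKM.

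Genes of the neuroblast cytoskeleton and of migration were higher in neuroblasts for 11 of 26 tested, with a median difference of -4.23. *Dpysl3* and *Crmp1*, collapsin response mediators that act on growth cones, were at 164, 131, 165 and 183 and 109, 43.9, 262 and 47.5 FPKM in neuroblasts and 0.126 to 3.28 and 0 to 0.497 FPKM in *Gfap*+ cells. *Nrxn3*, a synaptic adhesion gene, and *Elavl4*, an RNA-binding protein of neurons, were among the 11. *Elavl3* and *Ank3*, also listed here, were higher in *Gfap*+ cells, *Elavl3* at 171 to 371 FPKM against 25.6 to 127 FPKM and *Ank3*, which organises the axon's initial segment and is also made by glia at nodes, at 19.8 to 231 FPKM against 0 to 19.7 FPKM. Neither met the call once each cell was rescaled to a common sum.

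Several genes used as marks of young neurons did not separate the groups. *Stmn1*, a tubulin-binding protein, was at 3734, 1843, 1883, 2412 and 1540.4 FPKM in *Gfap*+ cells and 2895, 2798, 4138 and 1998 FPKM in neuroblasts. *Map1b*, a microtubule-associated protein of growing axons, was at 339.6, 487, 333, 353 and 325 FPKM and 562, 549.6, 2149.8 and 229 FPKM, and *Ncam1*, the adhesion molecule that carries polysialic acid, was at 879, 329.9, 92.5, 664 and 549.9 FPKM and 764, 934, 662 and 285 FPKM. *Tubb3*, the neuronal beta-tubulin, was at 473, 45.3, 40.2, 1.42 and 31.9 FPKM in *Gfap*+ cells and 96.2, 207, 181 and 422 FPKM in neuroblasts. In each of these 4 genes at least 1 *Gfap*+ cell passed the lowest neuroblast, and *Tubb3* met the call toward neuroblasts without *Gfap*+ cell 1.

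Of 17 GABA genes listed, 6 were tested, and *Gad2*, which makes GABA from glutamate, was higher in neuroblasts at 8.29, 95.9, 242 and 6.95 FPKM against 0 to 2.14 FPKM. *Gad1*, the partner enzyme, was at 266, 0.110, 79.1 and 0 FPKM in neuroblasts, which makes 2 cells high and 2 near 0. *Sv2a*, a vesicle protein, and *Slc12a2*, the chloride importer, were higher in *Gfap*+ cells, at 14.2 to 112 and 1.67 to 251 FPKM against 0 to 1.20 and 0 to 0.178 FPKM.

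Genes of stem and transit amplifying cells gave 7 tested and 2 higher in neuroblasts, *Ccnd2* and *Sox2*. *Sox2*, a factor that keeps neural progenitors undifferentiated, was at 197, 5.04, 8.58 and 7.67 FPKM in neuroblasts 1 to 4 and 0, 0.599, 0.195, 0 and 0.266 FPKM in *Gfap*+ cells, so 1 neuroblast was far above the other 3. *Egfr*, the receptor of activated stem and transit amplifying cells, was at 93.5, 20.5, 0.124 and 368 FPKM in neuroblasts and 0.133, 0.187, 1.58, 0 and 0.221 FPKM in *Gfap*+ cells. *Nes*, *Hes5* and *Nr2e1*, used as stem cell genes, stayed low: *Nr2e1* at or below 0.321 FPKM, *Hes5* listed at 0 in all 9 cells, and *Nes* above 1 FPKM in the third neuroblast only, at 27.9 FPKM.

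Replication and mitosis genes were higher in neuroblasts for 16 of 31 tested, and all 31 had negative differences, with a median of -4.19. *Pcna*, the sliding clamp of DNA polymerase, was at 1284, 1322, 992 and 748 FPKM in neuroblasts 1 to 4 and 21.6, 1.72, 142, 5.40 and 15.1 FPKM in *Gfap*+ cells 1 to 5. *Rrm2*, the subunit of ribonucleotide reductase made in S phase, was at 1029, 126, 394 and 1017 FPKM and 2.01, 4.70, 3.06, 2.77 and 3.90 FPKM, and *Dut*, which keeps uracil out of DNA, was at 357, 302, 286 and 99 FPKM and 0, 0.764, 1.48, 0.964 and 1.36 FPKM. All 4 neuroblasts were thus above all 5 *Gfap*+ cells for these 3 genes, as they were for the replicative helicase genes *Mcm2*, *Mcm3*, *Mcm6* and *Mcm7*.

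Some genes of the later cycle, picked after their values were seen, divided the neuroblasts among themselves. *Top2a*, which untangles chromosomes before mitosis, was at 1043, 23.3, 1368 and 43.4 FPKM in neuroblasts 1 to 4, against 1.49 to 7.99 FPKM in *Gfap*+ cells. *Kif11*, the spindle kinesin, was at 267, 0.892, 158 and 0.436 FPKM, *Aurkb*, a kinase of the centromere, at 375, 0.230, 410.1 and 0.247 FPKM, and *Cenpf*, a kinetochore protein, at 112, 0.924, 273 and 1.89 FPKM. Neuroblasts 1 and 3 were high and neuroblasts 2 and 4 were low for each of these 4 genes. *Mki67*, a coat protein of mitotic chromosomes, was present in all, at 45.4, 20.4, 39.3 and 6.03 FPKM in neuroblasts and 0.135, 0.253, 0.205, 0.399 and 0.336 FPKM in *Gfap*+ cells.

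Other genes of mitosis were close to 0 in most of the 9 cells. *Cdk1*, the kinase that drives mitosis, was at 0, 0.357, 298 and 0 FPKM in neuroblasts 1 to 4 and 0.528 to 3.82 FPKM in *Gfap*+ cells, so only the third neuroblast held it. *Cdc20*, the activator of the anaphase-promoting complex, and *Plk1*, a mitotic kinase, did not exceed 5.09 and 0.665 FPKM in any cell. *Bub1b*, a spindle checkpoint kinase, was at 56.4, 0, 0 and 0 FPKM in neuroblasts and 0.192, 0.180, 0.267, 0 and 3.42 FPKM in *Gfap*+ cells, and *Melk*, a cell cycle kinase, was at 7.76, 0, 1.05 and 0 FPKM and 0, 0.453, 0.442, 0 and 0 FPKM. Neither gene met the expression rule.

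Of 9 tested cell cycle inhibitors, *Btg1*, an antiproliferative gene, was higher in neuroblasts at 85.9, 119, 144 and 100.2 FPKM against 0.253 to 1.04 FPKM. *Cdkn1b*, which encodes p27, was at 499, 455, 1030.4 and 414 FPKM in neuroblasts and 350.3, 238, 97.5, 259.5 and 226 FPKM in *Gfap*+ cells, a difference of -1.36 that did not reach 2 although the groups did not overlap. *Cdkn2a* was listed at 0 in all 9 cells.

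**Figure D3:**
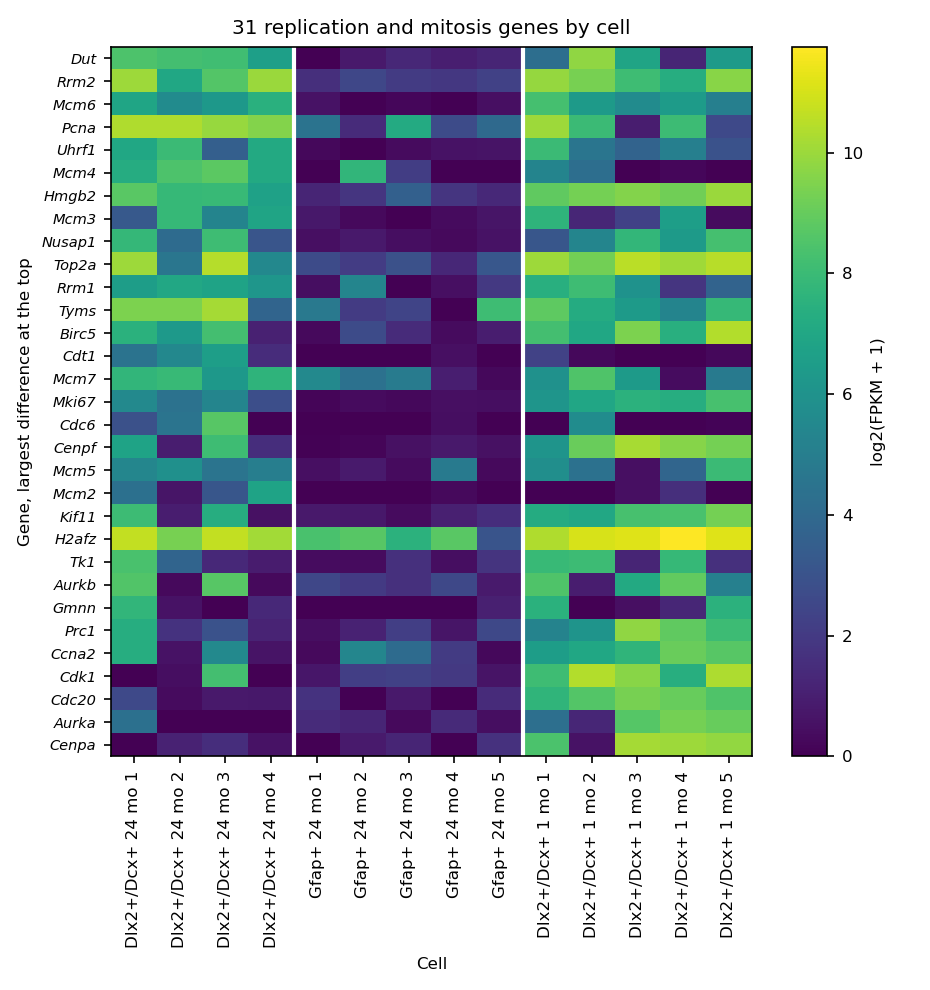
FPKM of replication and mitosis genes (colour scale, log2(FPKM + 1), the 31 tested genes in rows by their difference, cells in columns with replicate numbers: the 4 old neuroblasts, the 5 *Gfap*+ cells and, at the right, 5 neuroblasts of 1 month). *Pcna* is at 748 to 1322 FPKM in all 4 neuroblasts of 24 months, *Top2a* is at 1043 and 1368 FPKM in neuroblasts 1 and 3 and at 23.3 and 43.4 FPKM in neuroblasts 2 and 4, and *Cdc20* is at or below 5.09 FPKM in all 4.

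Of 23 immune genes listed, 7 were tested, 2 were higher in *Gfap*+ cells and 9 did not exceed 1 FPKM in any cell. *C4b* (chr17:34728380-34743882), a complement component, was at 274, 274, 204, 1492 and 205 FPKM in *Gfap*+ cells and 0, 0.0723, 0.0797 and 0 FPKM in neuroblasts. *Serpina3n*, a secreted protease inhibitor induced in glia by injury and age, was at 298, 169, 1.09, 277 and 70.2 FPKM and listed at 0 in all neuroblasts. *B2m*, the light chain of MHC class I, was at 0, 1286, 1267, 1240.1 and 782 FPKM in *Gfap*+ cells and 0.753, 0, 0 and 0 FPKM in neuroblasts, and its difference of 7.90 was not called because the first *Gfap*+ cell was listed at 0.

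Iron and antioxidant genes were higher in *Gfap*+ cells for 6 of 18 tested. *Fth1*, the heavy chain of the iron store ferritin, was at 48984, 36972, 38109.8, 60510.0 and 53767 FPKM in *Gfap*+ cells and 509.5, 426, 1103 and 255 FPKM in neuroblasts, whereas *Ftl1*, the light chain, was at 687, 1433, 1259, 1389 and 1378 FPKM and 1399, 1125, 1569.7 and 1907 FPKM, which overlap. *Gstm1*, a glutathione transferase, and *Gpx4*, which reduces lipid peroxides, were also called, *Gpx4* at 2088 to 6659 FPKM against 344 to 1012 FPKM, a call lost when each cell was rescaled to a common sum. *Fth1* and *Ftl1* have processed pseudogenes, as ribosomal protein, tubulin, histone and MHC class I genes have near-identical copies, and how the authors' counting shared their reads is not known.

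Of 20 tested genes of the autophagy and lysosome list, 3 were higher in *Gfap*+ cells, and none of its autophagy genes, such as *Becn1*, *Atg7* and *Sqstm1*, was called. The 3 were *Lamp1*, a protein of the lysosomal membrane, at 1521, 1056, 1076, 987 and 607 FPKM against 0.241, 0, 18.5 and 94.1 FPKM, and the cathepsins *Ctsd* and *Ctsb*, at 24.9 to 284 and 7.04 to 481 FPKM against 0 to 1.04 and 0 to 5.01 FPKM, where *Ctsb* lost its call after the same rescaling. None of 15 tested genes of the MAP kinase cascade was called. Over all tested genes 6.80% were called toward *Gfap*+ cells and 3.73% toward neuroblasts, so lists this short can hold no called gene. No trait of the autophagy or MAP kinase genes is read from the missing calls. *Mapk3*, which encodes Erk1, was at 1.32, 131, 120.4, 81.4 and 24.9 FPKM in *Gfap*+ cells and 35.5, 0.352, 8.60 and 73.4 FPKM in neuroblasts.

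Of 14 tested genes of the immediate early and stress list, 4 immediate early genes were higher in neuroblasts, against 3.73% of all tested genes. None of its stress genes, such as *Hspa8* and *Ddit3*, was called, and with so few genes nothing is read from that. *Ier2* was at 253, 485, 29.7 and 234 FPKM in neuroblasts 1 to 4 and 0, 0, 0.615, 1.19 and 1.26 FPKM in *Gfap*+ cells, *Egr1*, a zinc finger factor induced within minutes of a stimulus, at 682, 124, 24.9 and 604 FPKM and 0.470, 1.54, 1, 1.11 and 1.76 FPKM. *Fos* was at 2353, 203, 134 and 1129 FPKM in neuroblasts and 194, 1.46, 0.852, 3.31 and 0.872 FPKM in *Gfap*+ cells, where *Gfap*+ cell 1 alone was above 4 FPKM. *Dusp1*, a phosphatase that acts on MAP kinases, and *Junb*, a partner of *Fos*, were the other 2 called.

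Markers of other cells that the wall could hold were at 0 or low for most genes listed. All 15 endothelial and pericyte genes stayed at or below 1 FPKM in all 9 cells, with summed levels of 0 to 0.185 FPKM in *Gfap*+ cells and at most 0.184 FPKM in neuroblasts, and *Pecam1*, *Cldn5* and *Cdh5* were listed at 0. Of 15 microglia genes 2 were tested and none was called, with summed levels of 0.446 to 122 FPKM in *Gfap*+ cells and at most 108 FPKM in neuroblasts, while *P2ry12*, *Tmem119*, *Aif1* and *C1qa* were listed at 0 in all. The 2 high sums came from single genes, *Tyrobp* at 118 FPKM in the first *Gfap*+ cell and *C1qc* at 106 FPKM in neuroblast 4. Of 13 ependymal genes none was tested, 10 did not exceed 1 FPKM in any cell, and *Foxj1* reached 7.99 FPKM in 1 *Gfap*+ cell. Of 16 genes of mature neurons 14 did not exceed 1 FPKM in any cell, *Snap25* was at 0, 76.7, 2.47 and 117 FPKM in neuroblasts and *Penk* was at 406 FPKM in the fifth *Gfap*+ cell.

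The 35 mature oligodendrocyte genes summed to at most 536 FPKM in a neuroblast, against 58492 to 121125 FPKM in *Gfap*+ cells, and all 29 neuroblast transcription factors summed to 358 to 1351 FPKM in *Gfap*+ cells, *Etv1* alone holding 147 to 758 FPKM of it, against 2696 to 4773 FPKM in neuroblasts. The first neuroblast held *Trf* at 226, *Car2* at 126, *Cldn11* at 114 and *Ermn* at 57.6 FPKM. The third held *Mobp* at 213 and *Sirt2* at 202 FPKM beside *Olig1* at 120 FPKM, and *Cryab* was at 148 and 149 FPKM in neuroblasts 3 and 4. Their source was not tested.

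Cells of 1 month were set beside those of 24 months to see which contrasts were present at both ages. Over the same 7530 genes, 687 (9.12%) were higher in the 2 *Gfap*+ cells and 660 (8.76%) were higher in the 5 neuroblasts. Of the 512 genes higher in *Gfap*+ cells at 24 months, 451 had the same sign at 1 month and 264 met the call there. Of the 281 higher in neuroblasts, 263 had the same sign and 143 met it. The median differences were 5.65 and 3.74 for the first set and -4.99 and -3.52 for the second, at 24 and 1 months, with a median of -0.25 over all tested genes at 1 month. A set chosen for its size at 24 months is larger there by its choice, and since cells of both ages were clustered together, the shared sign is no independent evidence.

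The myelin contrast was present at both ages, with 18 of the 19 called structure genes and 25 of the 26 called mature genes called again at 1 month. *Mbp* was at 6346 and 9063 FPKM in the 2 *Gfap*+ cells of 1 month and 68.6, 52.2, 95.4, 4.09 and 3.41 FPKM in the 5 neuroblasts, so 3 of the young neuroblasts held more than any old one. *Gatm*, which makes the precursor of creatine, had differences of 10.04 at 24 months and 10.17 at 1 month, and *Mag* of 10.36 and 10.72.

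Several immune genes of the old *Gfap*+ cells were near 0 in the young ones. *C4b* was at 0.408 and 0 FPKM in the 2 *Gfap*+ cells of 1 month, *Serpina3n*, *B2m* and *Il33* were listed at 0 in both, whereas *Ifi27* and *H2-D1* reached 340 and 244 FPKM in 1 young cell each, and none of the 23 immune genes was called in the same direction at both ages. *Gstm1* was at 0 and 693 FPKM and *Klk6* at 2.37 and 855 FPKM, which leaves 1 young cell near 0 and 1 high for each. With 2 young cells against 5 old ones, no test of the age difference is given.

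Of the 16 replication and mitosis genes called toward neuroblasts at 24 months, 10 were called again at 1 month, and the median of the list was -4.84 there. The genes given next were picked after their values were seen. *Pcna* was at 1033, 254, 0.914, 266 and 5.04 FPKM in the 5 neuroblasts of 1 month, where 2 cells were at or below 5.04 FPKM, and at no less than 748 FPKM in the 4 of 24 months. *Cdc20* was at 206, 383, 640.3, 509.7 and 367 FPKM, *Cdk1* at 275, 1356, 808, 162 and 1269 FPKM and *Bub1b* at 236, 502, 388, 209 and 189 FPKM in young neuroblasts. All 5 young cells held these 3 genes at 162 FPKM or more, whereas at 24 months only *Cdk1* in the third neuroblast did. *Sp8* and *Pax6* were at 201 to 593 and 28.5 to 594 FPKM in young neuroblasts, and every young cell was above every old one for *Pax6*, while for *Sp8* neuroblast 3 of 24 months lay inside the young range at 379 FPKM.

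The next genes, also picked after their values were seen, did not overlap between the 2 young and 5 old *Gfap*+ cells. How many of all tested genes did so was not counted, so no age effect is read from them. *Map1b* was at 0.181 and 1.73 FPKM in the 2 young *Gfap*+ cells, against 325 to 487 FPKM in the 5 old ones. In young neuroblasts *Map1b* was at 518, 0.756, 414, 341 and 1206 FPKM. *Marcksl1*, an actin-binding relative of *Marcks*, was at 4.52 and 20.5 FPKM in young and 234, 209, 38.5, 217 and 22.1 FPKM in old *Gfap*+ cells, with the lowest old cell just above the higher young one. The difference for *Map1b* was -6.59 at 1 month and -0.78 at 24 months.

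*Prom1*+ cells of 24 months, the stem cell group, are given beside them for the leading genes. *Mbp*, *Mag* and *Apod* were at 0.733 to 1.36, 0.346 to 0.741 and 1.62 to 5.02 FPKM in these 3 cells. *Dlx1* and *Dlx2* were at 0.0893 to 2.35 and 0.376 to 1.74 FPKM. No order is read among levels this low. *Itgav*, an integrin subunit, was at 466, 183 and 565 FPKM in *Prom1*+ cells, 685 to 2472 FPKM in *Gfap*+ cells and at most 0.600 FPKM in neuroblasts, and *Ccnd2* was at 482, 388 and 32.9 FPKM in *Prom1*+ cells.

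Promoters were read for genes of the extremes to show what sequence lies before them. The windows are the 250 bases before the RefSeq start in GRCm38.p6, 5′ to 3′ on the gene's strand, which existed for 405 of the 512 genes higher in *Gfap*+ cells, 187 of the 281 higher in neuroblasts and 5608 of all tested. Capitals mark SOX letters (ACAAAG or ACAATG) or E2F letters (TTTCGCGC, TTTGGCGC or TTTCCCGC) on either strand, which may overlap. They are shown for *Mobp* and *Mag*, a pair of myelin genes with SOX letters, and for *Mcm6* and *Cdca7*, a pair of replication-linked genes with E2F letters.
Mobp, chr9:120149492-120149741 (plus strand): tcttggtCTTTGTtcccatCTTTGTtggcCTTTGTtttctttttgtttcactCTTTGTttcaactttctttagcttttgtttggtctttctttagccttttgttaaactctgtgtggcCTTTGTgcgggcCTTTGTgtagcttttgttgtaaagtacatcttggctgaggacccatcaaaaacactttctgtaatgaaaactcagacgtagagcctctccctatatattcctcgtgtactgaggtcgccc
Mag, chr7:30914864-30915113 (minus strand): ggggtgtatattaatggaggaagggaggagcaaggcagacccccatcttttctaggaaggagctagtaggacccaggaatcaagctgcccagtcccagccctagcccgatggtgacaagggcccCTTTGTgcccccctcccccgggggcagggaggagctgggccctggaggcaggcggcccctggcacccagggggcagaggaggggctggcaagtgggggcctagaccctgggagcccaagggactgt
Mcm6, chr1:128359706-128359955 (minus strand): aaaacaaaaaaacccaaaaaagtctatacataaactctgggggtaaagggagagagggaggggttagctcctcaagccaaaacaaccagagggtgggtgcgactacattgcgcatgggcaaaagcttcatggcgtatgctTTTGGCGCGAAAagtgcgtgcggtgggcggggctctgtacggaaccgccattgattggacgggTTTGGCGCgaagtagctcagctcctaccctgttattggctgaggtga
Cdca7, chr2:72475969-72476218 (plus strand): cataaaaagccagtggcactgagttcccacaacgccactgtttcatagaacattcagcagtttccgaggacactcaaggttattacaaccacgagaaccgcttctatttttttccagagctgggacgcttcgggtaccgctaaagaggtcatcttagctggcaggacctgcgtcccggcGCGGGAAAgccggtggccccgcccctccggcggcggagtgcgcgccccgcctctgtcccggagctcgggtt

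SOX letters were found 6 times in the *Mobp* window and 1 time in that of *Mag*, and E2F letters stood in 3 runs of *Mcm6*, a pair of them overlapping on opposite strands, and in 1 of *Cdca7*. Over all genes higher in neuroblasts, 8.56% of windows held E2F letters, against 1.98% of those higher in *Gfap*+ cells, 3.67% of all tested genes and 1.59% of all 27025 promoters. SOX letters were in 14.1% of windows of genes higher in *Gfap*+ cells, 23% of those higher in neuroblasts, 16.7% of tested genes and 25.5% of all promoters. The CCAAT box (CCAAT, both strands) was in 19 of 26 replication and mitosis genes, or 73.1%, and in 37.1% of tested genes. These shares describe letters in a fixed window and not binding.

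Bulk tissue of the ventricular wall was measured in samples apart from the cells. FPKM of 3 samples of 18 months and 3 of 3 weeks were compared by limma on log2(FPKM + 1), and a gene was called at an unadjusted p under 0.05 with a log2 change above 1 in size. Of 12287 genes tested, 225 (1.83%) were higher and 254 (2.07%) were lower at 18 months. With a pseudocount of 0.1 these were 416 and 349, and with FPKM rescaled to a common sum 384 and 311, so which direction held more genes depended on the setting. In tissue, fewer cells of a type and less RNA per cell cannot be told apart, and mice of 3 weeks are juvenile.

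Of the 281 genes higher in old neuroblasts, 212 were tested in tissue, 26 (12.3%) were lower and 3 were higher at 18 months. At an adjusted p under 0.05 these were 15 and 1. *Dlx1* was at 16.6, 14.4 and 15.6 FPKM in the 18-month samples and 38.7, 39 and 38 FPKM in the 3-week samples, and fell by 1.26 ± 0.10 on the log2 scale (SE, n = 3 per age, limma adjusted p = 0.00399). *Dlx2* was at 16.3, 12.2 and 11.1 FPKM and 38.7, 45.8 and 51.1 FPKM and fell by 1.71 ± 0.18 (limma adjusted p = 0.011). For both genes every sample of 18 months lay below every sample of 3 weeks.

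Among the 26 lower genes, 6 were on the replication and mitosis list. Of the 30 tested genes of the replication and mitosis list, 20 were lower at 18 months, 15 of them at an adjusted p under 0.05, and none was higher. *Top2a* was at 4.93, 6.34 and 6.50 FPKM at 18 months and 24.2, 22.1 and 17.5 FPKM at 3 weeks and fell by 1.68 ± 0.17 (limma adjusted p = 0.00955). *Rrm2* fell by 1.85 ± 0.30 (limma adjusted p = 0.0327), with 1.58, 4.26 and 4.17 FPKM against 14.4, 14.2 and 13 FPKM. *Sox4* was listed at 0 in 2 of the 3 samples of 18 months and at 38.1 FPKM in the other, against 70, 70.5 and 47.5 FPKM at 3 weeks, and its change did not pass after adjustment (limma adjusted p = 0.161).

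*Tubb5*, a beta-tubulin of dividing and young neural cells, was higher in old neuroblasts than in *Gfap*+ cells and yet rose in tissue, from 49.7, 60 and 50.7 FPKM at 3 weeks to 181, 204 and 203 FPKM at 18 months. The change was 1.86 ± 0.12 on the log2 scale (limma adjusted p = 0.002). *Cdk5r1* was also among the 3 higher genes and did not pass after adjustment (limma adjusted p = 0.188).

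Of the 512 genes higher in old *Gfap*+ cells, 405 were tested in tissue, 16 (3.95%) were higher and 12 (2.96%) were lower at 18 months, 12 and 10 of them at an adjusted p under 0.05. Of 19 myelin structure genes tested in tissue, 4 were lower at 18 months, all 4 at an adjusted p under 0.05, and none was higher. *Mbp* was at 1688, 1533 and 1038 FPKM at 18 months and 14162, 15125 and 15906 FPKM at 3 weeks, and fell by 3.44 ± 0.20 (limma adjusted p = 0.00164). *Cldn11* fell by 1.70 ± 0.11 (limma adjusted p = 0.00244), from 704, 803 and 829 FPKM to 257, 242 and 216 FPKM, and *Mog*, *Gsn* and *Sirt2* were also among the 12.

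The higher set included immune genes of the old *Gfap*+ cells. *C4b* rose from 10.6, 8.10 and 10.7 FPKM at 3 weeks to 43, 45.7 and 44.1 FPKM at 18 months, by 2.08 ± 0.13 on the log2 scale (limma adjusted p = 0.00224). *Serpina3n* rose from 5.09, 5.66 and 7.02 FPKM to 20.2, 16.2 and 13.5 FPKM, by 1.34 ± 0.19 (limma adjusted p = 0.0232). *Klk6* and *Hapln2*, a link protein of the matrix at nodes, rose by 2.07 ± 0.21 and 1.42 ± 0.15 (limma adjusted p = 0.00955 and 0.0112). Across the whole list of immune genes 7 of 19 tested in tissue were higher at 18 months and none was lower, all 7 at an adjusted p under 0.05, and the cells behind the tissue level were not identified.

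**Figure D4:**
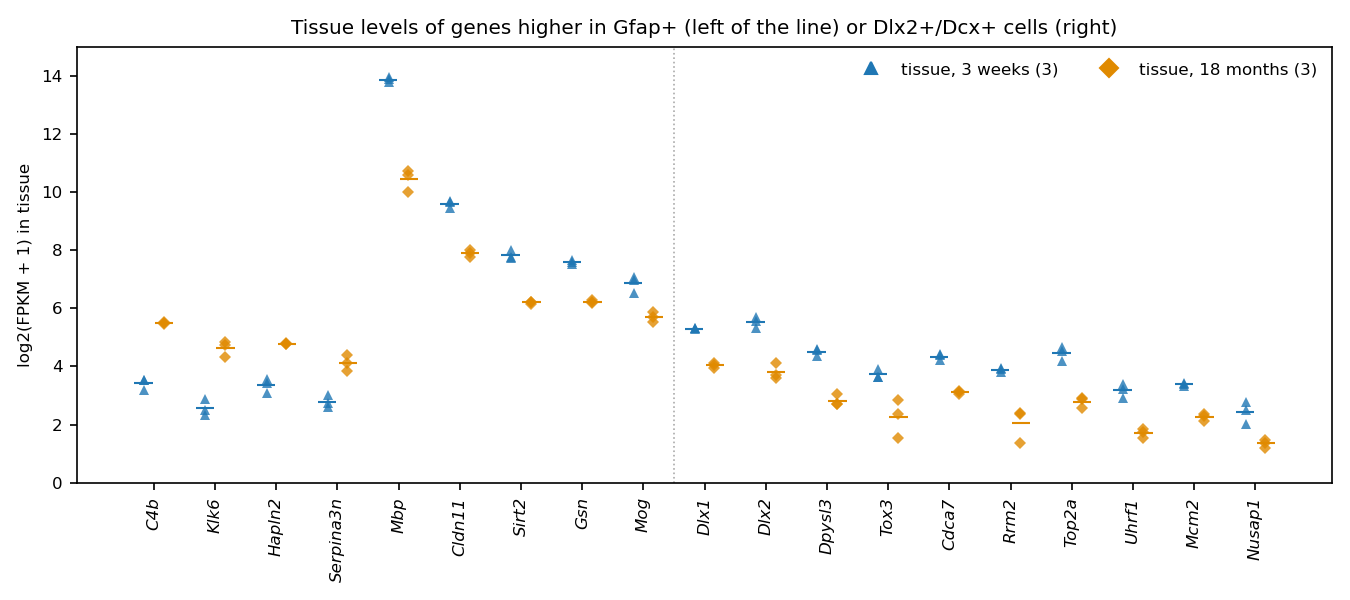
FPKM in bulk tissue (y axis, log2(FPKM + 1), genes on the x axis, triangles for 3 samples of 3 weeks, diamonds for 3 of 18 months, short lines for means) of genes higher in *Gfap*+ cells (left) and 10 higher in neuroblasts (right), chosen among those called in tissue. *C4b*, *Klk6*, *Hapln2* and *Serpina3n* are higher at 18 months, *Mbp* differs most of those shown, with a change of -3.44, and the 10 neuroblast genes are lower at 18 months.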

How the data were processed

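Single cells of the mouse lateral ventricle wall were sequenced from Smart-seq2 cDNA, and bulk tissue of the wall was sequenced separately. Per the labels, the submitters' processing notes name HISAT2, StringTie, featureCounts and GRCm38, with versions not given in the sources used here. The authors deposited 1 table of FPKM for the cells and 1 for tissue, each normalized for gene length and mapped fragments. Read counts per cell were not analysed here.

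Cells were grouped by their labels. Genes with FPKM above 1 in 3 or more of the 9 cells were kept, differences of mean log2(FPKM + 1) were computed, and a gene was called at a difference of at least 2 with no overlap of cells. Values were not rescaled between cells. Cells picked by hand were taken as single, and no doublet caller was run on 9 cells. FPKM are not counts, so no count model was used, and a value of 0 is given as listed at 0.

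Tissue was tested with limma 3.58.1 in R 4.3.3 (lmFit and eBayes with trend, two-sided) for genes with FPKM of at least 1 in 3 of 6 samples, with Benjamini-Hochberg adjustment over all 12287 genes. The study describes the tissue as derived from mice with n = 3 per age, whereas the labels name no animal per sample, so the p-values measure the spread between these samples, which may in part be technical. The steps were tested on simulated data, where the tissue comparison of 12287 genes recovered 180 of the 186 genes that passed the filter among 200 changed by 2 on the log2 scale. Python 3.11.15 with pandas 2.3.3 was used elsewhere, gene positions came from GENCODE M21 (by ID, for 32910 of the 37974 genes of the cells' table and 7205 of the 7530 tested) and promoters from RefSeq on GRCm38.p6.

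Named were the genes of 21 lists (462 genes), the 23 genes that the study names, and the 15 protein-coding genes with the largest difference in each direction. All values are given for most genes that lead a list or that the study names, and ranges, differences or only the call for others. Some genes and 1 PCR product are not reported here. The study chose its genes on these samples. The members and the lists were chosen with earlier results of these data known. Alternatives tried were the pseudocount, the expression filter, the scaling between cells, medians, the size of the difference, each cell or sample left out, and a replicate block in tissue.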

Additional observations from a re-analysis of the deposited data

Results flagged for a closer look

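Of 254 groups of 4 or 5 cells for the genes with printed values, those with no cell above 1 FPKM were passed over. In the rest, 37 groups held a cell far from the others by Dixon's criterion on the log2 scale. Chance flags about 1 in 20 for independent replicates, but the number of groups examined was not counted, so no share is given. The mouse of no cell is named and many values are near 0, so the criterion serves here only to pick out cells and nothing is drawn from the count. All values below are FPKM of the cell that stood apart.

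Among *Gfap*+ cells, the first stood apart with *B2m* listed at 0, *Ftl1* low at 687.4, *Fos* high at 194.2 and *Elavl4* at 2.558. The second stood apart with *Ank3* at 230.6, *Map1b* at 486.8, *Zfp948* at 12.69, *Btg1* at 1.038 and *Hist1h1b* listed at 0. The third was low in *Cryab* at 7975, *Gjc3* at 7.962 and *Serpina3n* at 1.09, and held *Egfr* at 1.584. *Gfap*+ cell 4 was high in *C4b* at 1492 and in *Dpysl3* at 3.278 and low in *Etv1* at 147.4, with *Aldoc* listed at 0, and cell 5 was low in *Mag* at 924.4, high in *Sulf2* at 317.6 and held *Gad2* at 2.14 and *Junb* at 4.143.

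Among neuroblasts, the first stood apart with *Sox2* high at 196.8, *Meis2* low at 44.61, *Fdft1* at 37 and *Gatm* at 1.607. The second held *Ank3* at 19.72, *Tfrc* at 63.62 and *Sqle* at 1.492. The third held *H2-D1* at 541.5, *Cdk1* at 297.8, *Olig1* at 119.9, *Tppp* at 12.06 and *Selenop* at 1.898 and was low in *Mcm7* at 76.52. Neuroblast 4 was low in *Dlx5* at 1.077, *Etv1* at 0.1182 and *Tubb5* at 2730.

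Of the genes called at 24 months, 3 had the opposite sign at 1 month with no overlap between the cells, and the difference between ages was not tested. *Bcl2l13*, a mitochondrial membrane protein, had a difference of -3.56 at 24 months and 3.886 at 1 month. Its lowest neuroblast of 24 months was at 0.836 FPKM and its highest *Gfap*+ cell at 0.241 FPKM, levels too low to be ranked. *Rabgap1*, a GTPase-activating protein, had -3.73 and 3.961, with its lowest neuroblast of 24 months at 1.88 FPKM and its highest *Gfap*+ cell at 1.84 FPKM. *Fnip1*, a partner of folliculin, had 5.21 and -3.863.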

How the results depend on the processing

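The 512 and 281 genes called in the cells depended mainly on the rule that the groups do not overlap: with overlap allowed, 1922 and 1223 genes had a difference of at least 2. In cells of 1 month the counts were 687 and 660. A pseudocount of 0.1, no expression filter, a difference of at least 1 and medians over cells gave 491 to 540 genes toward *Gfap*+ cells and 265 to 297 toward neuroblasts. Scaling to a common sum gave 440 and 353, with 439 of the 512 and all 281 kept, scaling without mitochondrial genes gave 443 and 355, and quantile scaling gave 444 and 361. Under those scalings *Ank3*, *Ctsb* and *Elavl3* lost their calls, *Gpx4* under the first pair and *Cenpf* under the third, *Dlx5* and *Fos* gained one under each, and *Vcan* under the third.

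With 1 cell left out the counts were 581 to 645 and 333 to 385, as fewer cells can overlap. *Elavl3* alone of the 95 called genes with printed values lost its call, without *Gfap*+ cell 1 or 4 or neuroblast 1. *Olig1* and *Tppp* met the call without *Gfap*+ cell 3 or neuroblast 3, *B2m*, *Dlx5*, *Fos* and *Tubb3* without *Gfap*+ cell 1, *Il33* without *Gfap*+ cell 3, *Aldoc* without *Gfap*+ cell 4, *Ifi27* and *Zeb2* without *Gfap*+ cell 5, *Snap25* without neuroblast 1, *Egfr*, *Fos*, *H2-D1*, *Ifi27* and *Vcan* without neuroblast 3, and *Sp8* and *Dlx5* without neuroblast 4. Values under 1 FPKM rest on few fragments, so levels there cannot be ranked.

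In tissue, the 16 genes higher at 18 months among those of *Gfap*+ cells were 12 at an adjusted p under 0.05, 20 with a pseudocount of 0.1, and 13 to 22 with 1 sample left out. The 26 lower genes among those of neuroblasts were 15 at an adjusted p under 0.05, 35 with a pseudocount of 0.1, and 19 to 27 with 1 sample left out. Over the whole table, the 225 higher and 254 lower genes became 416 and 349 with that pseudocount, 384 and 311 after scaling to a common sum, and 195 and 290 after quantile scaling. Replicate numbers did not pair the tissue samples: the correlations of same-numbered deviations were -0.096, -0.011 and -0.098, and a fit with the replicate block gave 16 and 23 genes. No paired analysis was possible for the cells because the mouse of no cell is named.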

Other observations

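The gene families below were looked at after their values were seen. Over all 7530 tested genes, 6.80% were called toward *Gfap*+ cells and 3.73% toward neuroblasts. With few members per family, the counts called describe these genes and are not read as a trait of a family. All 8 tested high mobility group genes, which bend DNA or bind nucleosomes, had negative differences, and *Hmgb2*, *Hmgb3* and *Hmgn2* were higher in neuroblasts; their summed level was 780 to 1570 FPKM in *Gfap*+ cells and 4711 to 12399 FPKM in neuroblasts. Of 76 tested ribosomal protein genes 70 had negative differences, with a median of -1.17, and 5 were called toward neuroblasts. Of 19 tested genes of heterogeneous nuclear ribonucleoproteins, which bind nascent RNA, 15 had negative differences and *Hnrnpa0*, *Hnrnpa1* and *Hnrnpll* were called.

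Septins, filament-forming GTPases, divided between the groups. *Sept4*, *Sept7* and *Sept8* were higher in *Gfap*+ cells and *Sept3* and *Sept11* in neuroblasts, of 8 tested. Among 8 tested tubulins *Tubb4a*, a form abundant in oligodendrocytes, was higher in *Gfap*+ cells and *Tubb2b* and *Tubb5* in neuroblasts. Genes of the mitochondrial genome had a median difference of 0.35 over 19 tested, and none was called.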
